A study of Mus musculus with 14 samples.

Results

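The genes described here encode 10 nuclear-encoded subunits of mouse mitochondrial ATP synthase: the catalytic head (Atp5a1, Atp5b), the central stalk (Atp5c1, Atp5d), the peripheral stalk (Atp5o, Atp5h, Atp5j) and the proton-driven c-ring (Atp5g1, Atp5g2, Atp5g3). They were taken by gene symbol from the deposited count table, in which all 10 had 1 row each among 52550 genes. The libraries came from triceps muscle of 14 male mice. There were 4 FLExDUX4 runners (6 weeks of voluntary wheel running), 3 FLExDUX4 controls that did not run, 4 WT runners and 3 WT controls, the WT mice being littermates. FLExDUX4 mice carry a Cre-inducible transgene of human DUX4, the gene misexpressed in facioscapulohumeral muscular dystrophy, and the labels name no Cre allele, no strain background and no age. The human transgene was not analysed here, so the genotype labels were not checked against its expression. The title names the question: what aerobic exercise does to the muscle deficits of this mouse model.

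ATP synthase lets protons flow back into the mitochondrial matrix through a rotor, the ring of c subunits, and uses the rotation of the attached central stalk to make ATP in the catalytic head of alternating alpha and beta subunits. The peripheral stalk holds the head still against the rotor. The c-ring genes Atp5g1, Atp5g2 and Atp5g3 are paralogues that differ in their import presequences and encode the same mature c protein. In skeletal muscle, endurance training is known to raise the content of mitochondrial proteins, and slow and oxidative fibres hold more mitochondria than fast glycolytic ones.

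The promoters of the 3 c-subunit paralogues are shown because they encode the same mature product and 2 of them, Atp5g1 and Atp5g3, were the members called with running. Each sequence, from RefSeq on GRCm38.p6 and 280 bases long, runs 5′ to 3′ from 250 bases before the start of the transcript to 30 after it. All 3 genes lie on the minus strand: Atp5g1 at chr11:96075602-96075881, Atp5g2 at chr15:102671018-102671297 and Atp5g3 at chr2:73911297-73911576. Capitals mark matches to the motifs searched.
Atp5g1: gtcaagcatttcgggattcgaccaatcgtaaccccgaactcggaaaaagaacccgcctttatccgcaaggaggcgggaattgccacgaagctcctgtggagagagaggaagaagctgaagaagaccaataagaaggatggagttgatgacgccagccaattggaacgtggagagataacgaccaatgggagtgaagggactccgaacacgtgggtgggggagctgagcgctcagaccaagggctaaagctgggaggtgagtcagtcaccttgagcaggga
Atp5g2: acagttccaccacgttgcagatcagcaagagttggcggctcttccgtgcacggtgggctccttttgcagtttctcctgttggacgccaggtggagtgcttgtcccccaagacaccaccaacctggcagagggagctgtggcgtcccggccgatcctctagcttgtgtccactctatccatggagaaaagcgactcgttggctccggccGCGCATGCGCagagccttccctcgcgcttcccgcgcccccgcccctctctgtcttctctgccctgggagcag
Atp5g3: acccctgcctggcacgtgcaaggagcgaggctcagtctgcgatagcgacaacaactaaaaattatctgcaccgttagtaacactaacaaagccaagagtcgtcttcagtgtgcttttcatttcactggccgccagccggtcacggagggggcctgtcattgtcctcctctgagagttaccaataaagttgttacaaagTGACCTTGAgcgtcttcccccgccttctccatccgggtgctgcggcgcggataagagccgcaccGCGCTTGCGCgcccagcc

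Windows of 300 bases, reaching 50 bases after the start, were searched on both strands for 4 motifs: the NRF1 core (GCGCA and GCGC around 1 free base), the ERR motif TNAAGGTCA, the ETS motif CCGGAAG and the YY1 motif AAGATGGCG. No match in a member's window overlapped another. Atp5g1 held no match to the 4 motifs. The Atp5g2 window held the NRF1 core 42 bases before the start. Atp5g3 held the NRF1 core 12 bases after the start and the ERR motif 52 bases before it. Of the 9 members with an entry in the promoter table, 5 held the NRF1 core in at least 1 promoter (Atp5c1, Atp5o, Atp5h, Atp5g2 and Atp5g3), against 5.19% of the 27025 genes in the table. The ERR motif was found in 1.43% of those genes, the ETS motif in 9.93% (Atp5h and Atp5j among the members) and the YY1 motif in 1.64% (Atp5j among the members). Atp5a1 had no entry. A match describes letters only, and binding was not measured.

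Library totals, with the spike-ins included, ran from 3315921 to 7089226 counts. The 10 members together took 0.531% ± 0.0646 of gene counts in FLExDUX4 runners (SD, n = 4), 0.464% ± 0.0642 in FLExDUX4 controls (n = 3), 0.601% ± 0.110016 in WT runners (n = 4) and 0.440% ± 0.0222 in WT controls (n = 3). Transcripts of the mitochondrial genome took 33.2% ± 5.40, 26.2% ± 4.88, 31.8% ± 4.01 and 24.0% ± 2.82 of gene counts in the same 4 groups, in that order. The tissue label was checked against 4 skeletal muscle markers (Ckm, Acta1, Mylpf and Myh4), whose summed level was between 57232 and 100071 CPM (counts scaled to a common library size, as CPM with TMM factors) in all 14 libraries. Of the 4 heart markers, Nppa and Myl7 had 0 counts in every library, Myh6 had at most 9 counts and Sln, which skeletal muscle also expresses, had 2 to 66 counts; only Sln could be tested, and it was not called with running (log2 fold change 0.67 in FLExDUX4 mice and 1.39 in WT mice). FLExDUX4 control 1 and WT running 2 had stood apart in an earlier look at these data. Here the median correlation of log2 CPM with the other libraries was 0.910 for FLExDUX4 control 1, the lowest of all, and 0.921 for WT running 2, inside the range of the remaining libraries (0.918 to 0.929). Each library is labelled as a separate mouse, so p-values measure the spread between mice.

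In triceps the subunit genes other than Atp5g2 averaged from 179.9 to 1149 CPM, and the c-subunit genes Atp5g1 and Atp5g3 lay apart within that range. These libraries read 1 site near the 3′ end of a transcript, so a count does not grow with transcript length, and levels are compared on the CPM scale without division by length. Over all 14 mice, Atp5a1 averaged 1149 ± 212 CPM (SD), Atp5b 1052 ± 155 CPM and Atp5g3 1017 ± 272 CPM. These highest members differed by less than 1 SD of any of them. Atp5o, the subunit that joins the stalk to the head, averaged 532 ± 102 CPM, Atp5c1, the rotating gamma subunit, 459 ± 74.8 CPM, and Atp5d, the delta subunit of the central stalk, 353 ± 66.2 CPM. Atp5o and Atp5c1 differed by less than their SD. Below them came Atp5g1 at 231 ± 72.2 CPM, Atp5j, coupling factor F6, at 219 ± 30.7 CPM, and Atp5h, subunit d, at 179.9 ± 42.1 CPM, each differing from the next by less than the larger of their SDs. Atp5g2 was listed at 2.82 ± 0.839 CPM, from 5 to 21 counts per mouse. The spread over mice relative to the mean was widest for Atp5g1 (31.2%), Atp5g2 (29.7%) and Atp5g3 (26.8%), and narrowest for Atp5j (14.02%).

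The low Atp5g2 count cannot be read as a low level. Of the 75-base stretches in the last 300 bases of its transcripts, 0% to 1.77% occurred in no other annotated gene (exact matches, either strand, GENCODE M21 transcripts on GRCm38), and a read here was up to 75 bases long. The matching genes were Gm10175, with 4 counts over all 14 libraries, and Gm10231, with 0. How the authors' counting treated reads with several alignments is not given in the sources used here. Atp5g3, Atp5a1, Atp5b, Atp5c1 and Atp5d were fully distinct (100%), and Atp5j and Atp5o were distinct over 94.2% and 83.2% of their stretches. For Atp5g1 the share was between 61.9% and 93.4% depending on the transcript, and for Atp5h between 53.5% and 74.8%. With 50-base stretches the shares were 45.8% to 79.7% for Atp5g1 and 38.2% to 61.8% for Atp5h. Their matching copies had few counts: at most 44 in a library for Gm10250, which matches Atp5h, and at most 25 for Gm12337, which matches Atp5g1. Low counts of the copies do not show how shared reads were counted, and any loss of Atp5g1 or Atp5h reads was not tested. Trmt1, which matched some Atp5g1 stretches, had 42 to 129 counts per library.

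**Figure D1:**
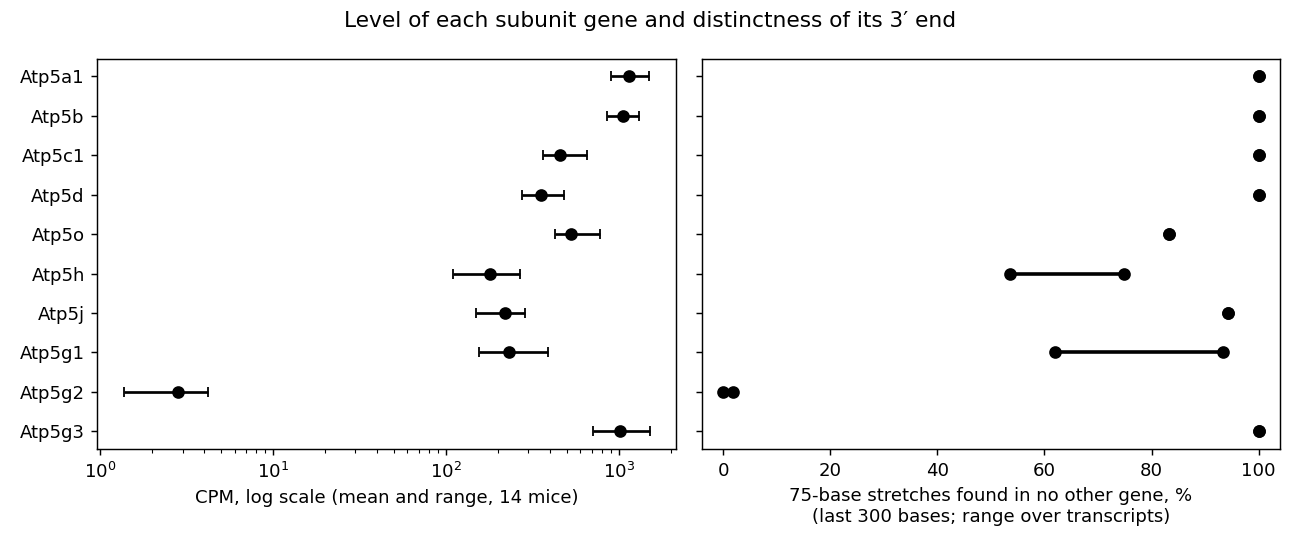
Left, mean CPM of each subunit gene with the range over 14 mice, on a log scale. Right, percent of 75-base stretches in the last 300 bases that occur in no other annotated gene, with a bar spanning the transcripts of a gene. Atp5g2 is listed at 2.82 CPM, with at most 1.77% of its stretches distinct, so its point is not a measured level.

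The 10 genes lie on 6 chromosomes of GRCm38. Atp5g3 (ENSMUSG00000018770) spans chr2:73908447-73911326 and Atp5c1 chr2:10056016-10080510, Atp5g1 (ENSMUSG00000006057) spans chr11:96068852-96075670 and Atp5h chr11:115415689-115419962, and Atp5g2 (ENSMUSG00000062683) spans chr15:102662864-102672352. Atp5b and Atp5d lie on chromosome 10, Atp5j and Atp5o on chromosome 16, and Atp5a1 on chromosome 18. For 9 members the position in the deposited table equalled the GENCODE M21 start. The table's position for Atp5o, 91684398, lies outside its GENCODE M21 span of chr16:91925214-91931687.

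In WT mice, 2 c-ring genes rose with running. Atp5g1 was 1.79-fold higher in WT runners than in WT controls (log2 fold change 0.84 ± 0.18, SE; edgeR adjusted p = 0.0292), and Atp5g3 was 1.63-fold higher (0.71 ± 0.16, adjusted p = 0.0411). In FLExDUX4 runners no member passed the test, and all 10 had positive log2 fold changes, between 0.15 and 0.57. In WT runners 9 of 10 members were above 0, and the median of the 10 was 0.48 on the log2 scale, beside 0.01 for all 11088 tested genes. In FLExDUX4 runners the median of the members was 0.23, also beside 0.01 for all tested genes.

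Of the 10 members, all of which had enough counts for the test, 2 were called higher in WT runners and 0 lower at an edgeR adjusted p under 0.05. Over all tested genes, 0.496% were called in either direction and 0.397% were called higher. At an unadjusted p under 0.05, 8 of 10 members were higher, beside 10.7% of all tested genes in either direction. The WT runners and WT controls did not overlap in CPM for 7 of 10 members, with the runners higher, beside 5.74% of all tested genes. Among FLExDUX4 mice, edgeR called 0 members and 0% of all tested genes, as did DESeq2 and limma-voom. At an unadjusted p under 0.05, 3 of 10 members were higher there (Atp5j, Atp5g1 and Atp5g3), beside 6.66% of all tested genes, and 0 of 10 members had groups that did not overlap, beside 3.72% with runners higher.

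The WT calls rest on small groups. No member was called without WT running 1 (10 genes in all, against 55 with every mouse) or without WT running 4 (2 genes). The same held without WT control 1, 2 or 3 (0, 4 and 10 genes). Without WT running 3, 4 members and 197 genes were called. Only Atp5g1 of the members was called without FLExDUX4 running 1 or 3 (12 and 15 genes) or FLExDUX4 control 1 or 2 (19 and 25 genes). DESeq2 called 2 members and 2.56% of the genes it gave an adjusted p, and limma-voom called 0 members and 0.207%. Library sizes set from the spike-ins raised the calls to 8 members and 604 genes. That scaling also raised the median of all tested genes by 0.36 on the log2 scale.

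**Figure D2:**
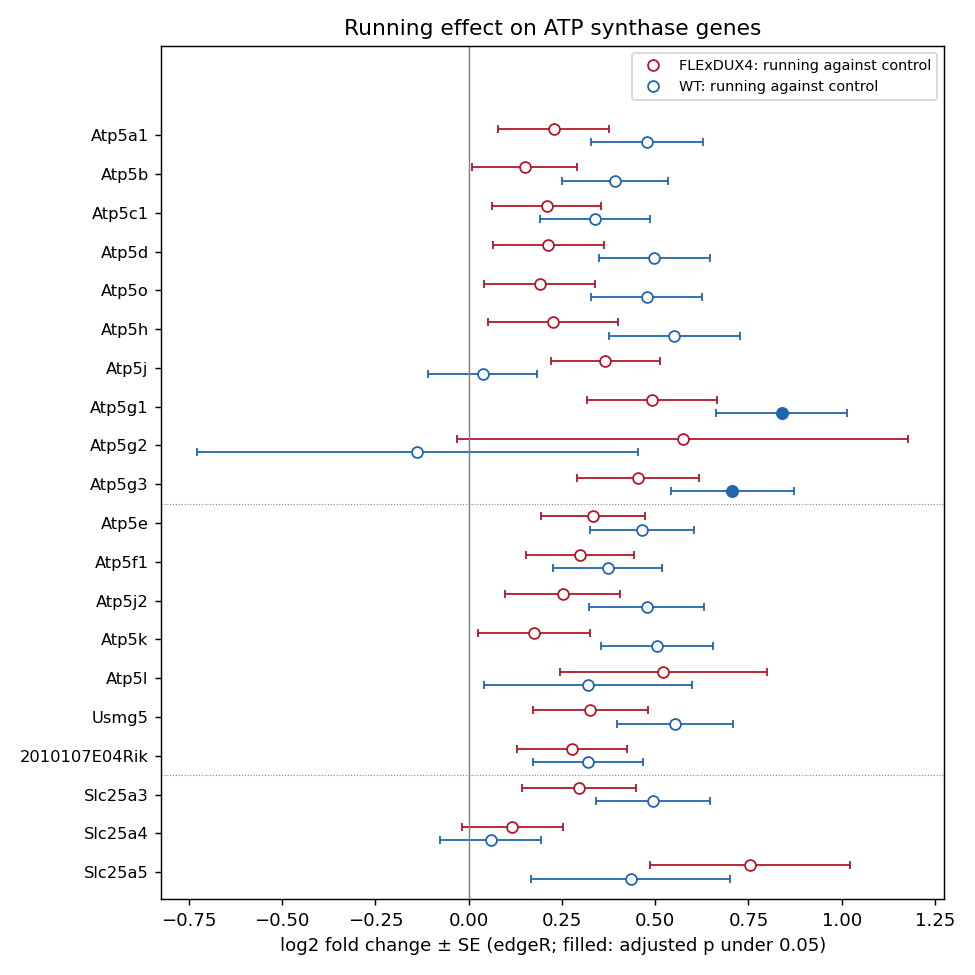
Log2 fold change of running against control with its SE (edgeR), in FLExDUX4 mice (red) and WT mice (blue), for the 10 members, then the other subunit genes, then the carriers of ATP and phosphate. Filled points passed an adjusted p under 0.05, which were Atp5g1 (0.84) and Atp5g3 (0.71) in WT mice.

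The catalytic head genes were among the most abundant members. Atp5a1, the alpha subunit, had 1174, 1465, 1299.8 and 928 CPM in FLExDUX4 runners, against 1020.0, 1091 and 1004 CPM in FLExDUX4 controls. In WT runners Atp5a1 had 1501, 1201, 1078 and 1485 CPM, against 903, 957 and 974 CPM in WT controls. All 4 WT runners lay above all 3 WT controls, while the lowest FLExDUX4 runner lay below the 3 FLExDUX4 controls. The log2 fold change of Atp5a1 was 0.23 ± 0.15 in FLExDUX4 mice (edgeR adjusted p = 0.834) and 0.48 ± 0.15 in WT mice (adjusted p = 0.142). Atp5b, the beta subunit that carries the catalytic sites, had 1098, 1272, 1104 and 883 CPM in FLExDUX4 runners, against 947, 1020.4 and 975 CPM in FLExDUX4 controls. In WT mice Atp5b had 1316, 1058, 1048 and 1304 CPM in runners, against 873, 851 and 976 CPM in controls. The WT groups again did not overlap and the FLExDUX4 groups did. The log2 fold change of Atp5b was 0.15 ± 0.14 in FLExDUX4 mice (adjusted p = 0.902) and 0.39 ± 0.14 in WT mice (adjusted p = 0.235).

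In the central stalk, Atp5c1 encodes the gamma shaft that turns inside the head. Its level was 481, 539.9, 493 and 417 CPM in FLExDUX4 runners, against 400.0, 419 and 433 CPM in FLExDUX4 controls. WT runners had 504, 409, 460.0 and 659 CPM of Atp5c1, against 362, 408 and 435 CPM in WT controls. WT running 2 lay among the WT controls, WT running 4 was the highest of all mice, and the FLExDUX4 groups overlapped too. Its log2 fold changes were 0.21 ± 0.15 in FLExDUX4 mice and 0.34 ± 0.15 in WT mice (edgeR adjusted p = 0.841 and 0.387). Atp5d, the delta subunit near the foot of the shaft, had 369, 451, 369 and 293 CPM in FLExDUX4 runners, against 289, 345 and 323 CPM in FLExDUX4 controls. WT runners had 484, 361, 347 and 441 CPM of Atp5d, against 313, 276 and 279 CPM in WT controls. Every WT runner exceeded every WT control, by a log2 fold change of 0.50 ± 0.15 (adjusted p = 0.125). In FLExDUX4 mice the groups overlapped (0.21 ± 0.15, adjusted p = 0.841).

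Of the peripheral stalk genes, Atp5o encodes OSCP, the cap that ties the stalk to the head. It had 522, 659, 559 and 426 CPM in FLExDUX4 runners, against 442, 486 and 493 CPM in FLExDUX4 controls. WT runners had 638, 521, 570.5 and 779 CPM of Atp5o, against 443, 427 and 481 CPM in WT controls. The WT groups did not overlap (0.48 ± 0.15, edgeR adjusted p = 0.142) and the FLExDUX4 groups did (0.19 ± 0.15, adjusted p = 0.875). Atp5h, subunit d of the stalk, had 178, 254, 185 and 151 CPM in FLExDUX4 runners, against 162, 177 and 152 CPM in FLExDUX4 controls. WT runners had 219, 175, 169 and 269.5 CPM of Atp5h, against 111, 164 and 151 CPM in WT controls. The lowest WT runner lay just above the highest WT control, and the log2 fold change was 0.55 ± 0.18 (adjusted p = 0.153), with 0.23 ± 0.17 in FLExDUX4 mice (adjusted p = 0.868).

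Atp5j, coupling factor F6 of the same stalk, had another pattern. FLExDUX4 runners had 233, 286, 257 and 198 CPM of Atp5j, against 150.1, 202 and 213 CPM in FLExDUX4 controls. WT runners had 228, 202, 227 and 225 CPM of Atp5j, against 209.9, 212 and 223 CPM in WT controls. The WT mice of both groups shared a narrow band, with WT running 2 the lowest, and the FLExDUX4 mice spread more widely, with FLExDUX4 control 1 the lowest of all. The log2 fold change was 0.37 ± 0.15 in FLExDUX4 mice (edgeR adjusted p = 0.71) and 0.04 ± 0.15 in WT mice (adjusted p = 0.972). The difference between these running effects was 0.33 ± 0.21 and did not pass the test (adjusted p = 0.97), and it was -0.01 with library sizes from the spike-ins.

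**Figure D3:**
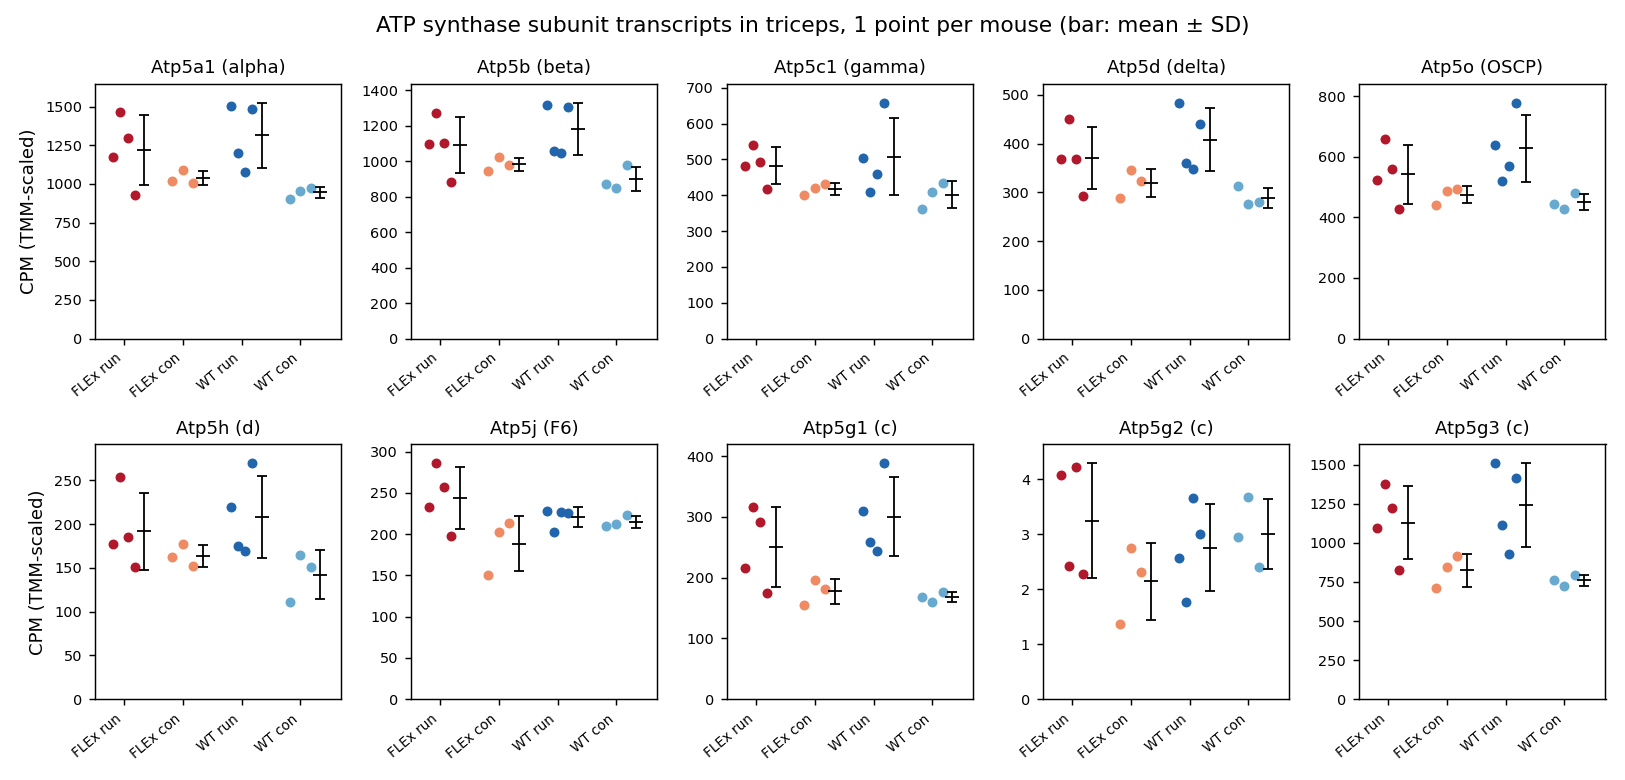
CPM of each subunit gene in each mouse, in the order FLExDUX4 runners, FLExDUX4 controls, WT runners and WT controls, with the mean and SD beside the points. For Atp5g1 all 4 WT runners (245 to 388 CPM) lie above all 3 WT controls (159.9 to 176 CPM), whereas the WT groups overlap for Atp5c1, Atp5j and Atp5g2.

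In the c-ring, the raw counts of Atp5g1 were 1113, 1178, 969 and 1227 in FLExDUX4 runners, against 568, 785 and 1407 in FLExDUX4 controls. In WT mice the raw counts were 1566, 1460, 1205 and 2194 in runners, against 798, 740 and 586 in controls. After scaling, Atp5g1 had 216, 317, 292 and 175 CPM in FLExDUX4 runners and 156, 196 and 181 CPM in FLExDUX4 controls. Here 3 of the 4 FLExDUX4 runners exceeded all 3 FLExDUX4 controls, and FLExDUX4 running 4 lay among them. WT runners had 309.9, 259, 245 and 388 CPM of Atp5g1, against 168, 159.9 and 176 CPM in WT controls. The WT groups stood well apart, at 301 ± 64.8 CPM in runners (mean and SD, n = 4) and 168 ± 8.22 CPM in controls (n = 3). In FLExDUX4 mice the means were 250.004 ± 65.9 CPM in runners (n = 4) and 178 ± 20.2 CPM in controls (n = 3), a log2 fold change of 0.49 ± 0.17 that did not pass the test (edgeR adjusted p = 0.6).

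Atp5g3, the higher of the c-ring genes with readable counts, had raw counts of 5631, 5106, 4072 and 5777 in FLExDUX4 runners, against 2588, 3404 and 7110 in FLExDUX4 controls. In WT mice the raw counts of Atp5g3 were 7619, 6279, 4568 and 7990 in runners, against 3634, 3358 and 2634 in controls. Scaled, Atp5g3 had 1095, 1374, 1226 and 823 CPM in FLExDUX4 runners and 710.0, 849 and 915 CPM in FLExDUX4 controls. These groups overlapped, as FLExDUX4 running 4 was below 2 of the controls. WT runners had 1508, 1115, 927 and 1414 CPM of Atp5g3, against 764, 725 and 792 CPM in WT controls. Every WT runner lay above every WT control, at 1241 ± 268 CPM in runners (SD, n = 4) and 761 ± 33.7 CPM in controls (SD, n = 3). The FLExDUX4 log2 fold change was 0.45 ± 0.16 (edgeR adjusted p = 0.6). Atp5g2 had 21, 9, 14 and 16 counts in FLExDUX4 runners, against 5, 11 and 18 in FLExDUX4 controls. In WT mice Atp5g2 had 13, 10, 18 and 17 counts in runners, against 14, 17 and 8 in controls. At this depth, with the limit on distinct reads given above, its log2 fold changes of 0.57 ± 0.60 in FLExDUX4 mice and -0.14 ± 0.59 in WT mice (adjusted p = 0.925 and 0.974) did not show a difference; the WT value was 0.22 with library sizes from the spike-ins.

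Averaged over genotype, the c-ring genes Atp5g1 and Atp5g3 again had the highest values of the members. Atp5g1 was higher in runners by 0.67 ± 0.12 on the log2 scale (edgeR adjusted p = 0.00773) and Atp5g3 by 0.58 ± 0.12 (adjusted p = 0.0122). These were 2 of the 10 members, beside 0.857% of all tested genes called in either direction and 0.55% called higher. All 10 members had positive values, with a median of 0.34 beside 0.01 for all tested genes, and 8 were higher at an unadjusted p under 0.05, beside 12% of all tested genes in either direction. Next came Atp5h (0.39 ± 0.12, adjusted p = 0.123), Atp5d (0.36 ± 0.11, adjusted p = 0.0878) and Atp5a1 (0.35 ± 0.11, adjusted p = 0.0937). Then came Atp5o (0.33 ± 0.11), Atp5c1 (0.27 ± 0.10), Atp5b (0.27 ± 0.10), Atp5g2 (0.22 ± 0.42) and Atp5j (0.20 ± 0.10), with adjusted p between 0.118 and 0.908. DESeq2 called 4 members and 3.9% of the genes it gave an adjusted p, and limma-voom called 2 members and 0.631%. The edgeR count of members was 6 without FLExDUX4 running 4 (286 genes in all, against 95 with every mouse). It was 4 without WT running 3 (239 genes) and 1 without FLExDUX4 control 1 (17 genes). With FLExDUX4 control 1 and WT running 2 both left out it was 1 (24 genes).

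Whether running acted differently in FLExDUX4 mice was asked by the difference of the running effects (FLExDUX4 minus WT). No member and 0% of all tested genes were called by edgeR, as by DESeq2 and limma-voom, and 0 members passed an unadjusted p under 0.05, beside 4.84% of all tested genes. The differences of 8 members were below 0, with a median of -0.25 over the 10 beside -0.01 over all tested genes. Atp5g1 had -0.35 ± 0.24 (adjusted p = 0.976) and Atp5g3 -0.25 ± 0.23 (adjusted p = 0.976). The call of Atp5g1 and Atp5g3 in WT mice and not in FLExDUX4 mice is therefore not shown to be a difference between genotypes.

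The other genes of the complex were described from lists of known members. Of 7 further subunits (Atp5e, Atp5f1, Atp5j2, Atp5k, Atp5l, Usmg5 and 2010107E04Rik), 0 were called in FLExDUX4 runners and 0 in WT runners, with medians of 0.30 and 0.47 on the log2 scale, and all 7 were above 0 in both. At an unadjusted p under 0.05, 3 of the 7 were higher in FLExDUX4 runners, beside 6.66% of all tested genes in either direction, and 6 in WT runners, beside 10.7%. Averaged over genotype, 2 of the 7 were called higher, beside 0.55% of all tested genes: Atp5e, the epsilon subunit of the central stalk (0.40 ± 0.10, edgeR adjusted p = 0.0384), and Usmg5, the small DAPIT subunit of the membrane sector (0.44 ± 0.11, adjusted p = 0.0401). Atp5e averaged 590.1 ± 82.0 CPM in FLExDUX4 runners (SD, n = 4), 468 ± 49.8 CPM in FLExDUX4 controls (n = 3), 588 ± 62.8 CPM in WT runners (n = 4) and 426 ± 5.69 CPM in WT controls (n = 3). Usmg5 averaged 289.8 ± 37.4 CPM in FLExDUX4 runners, 231 ± 60.2 CPM in FLExDUX4 controls, 308 ± 41.4 CPM in WT runners and 209.8 ± 5.66 CPM in WT controls, with the same n. For both genes the WT runners lay wholly above the WT controls and the FLExDUX4 groups overlapped.

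Of 5 assembly and regulation genes (Atpif1, Atpaf1, Atpaf2, Tmem70 and Atp5s), 0 were called in any running comparison. Their median was -0.10 in FLExDUX4 runners and 0.15 in WT runners. Tmem70, which helps to build the c-ring, had an averaged log2 fold change of 0.45 ± 0.13 (edgeR adjusted p = 0.0975), from 0.68 ± 0.19 in FLExDUX4 mice and 0.21 ± 0.19 in WT mice. Atpif1, the inhibitor of ATP hydrolysis by the enzyme, had an averaged value of 0.36 ± 0.14 (edgeR adjusted p = 0.247). Runners lay above controls without overlap for 2 of the 5 in FLExDUX4 mice (Tmem70 and Atpif1), beside 3.72% of all tested genes. The margins were small. For Atpif1 the lowest FLExDUX4 runner (26.6304 CPM) and the highest FLExDUX4 control (26.6288 CPM) were nearly equal, and for Tmem70 they were 37.9 and 36.7 CPM. In WT mice the runners lay above the controls without overlap for 1 of the 5 (Atpif1), beside 5.74%. Of the 3 carriers that exchange ATP, ADP and phosphate with the cytosol, 0 were called. Slc25a3, the phosphate carrier, had an averaged log2 fold change of 0.40 ± 0.11 (edgeR adjusted p = 0.0656) and Slc25a5, an adenine nucleotide translocase, 0.59 ± 0.19 (adjusted p = 0.121). Slc25a4, the other adenine nucleotide translocase of the list, had 0.09 ± 0.10 (edgeR adjusted p = 0.796). Group means ran from 2811 to 3125 CPM for Slc25a4 and from 12.2 to 21.0 CPM for Slc25a5. The mitochondrially encoded subunit genes mt-Atp6 and mt-Atp8 had at most 8 counts in any library and were not tested. Transcripts of the mitochondrial genome as a whole took between 20.5% and 39.8% of gene counts in these libraries. The low counts of mt-Atp6 and mt-Atp8 are therefore not read as low levels, and their cause was not tested.

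Summed fibre, endothelial and red blood cell markers did not overlap between WT runners and WT controls, and summed macrophage and fat markers did. The heart markers, low in all groups, did not overlap either, at 3.19 to 5.48 CPM in WT runners and 1.47 to 2.41 CPM in WT controls. In FLExDUX4 mice the summed ranges of runners and controls overlapped for every fibre and cell type list. The 4 skeletal muscle markers, which belong mostly to fast fibres or to all fibres, summed to between 61541 and 87767 CPM in FLExDUX4 runners and between 82905 and 92730 CPM in FLExDUX4 controls, and to between 57232 and 85306 CPM in WT runners and between 94709 and 100071 CPM in WT controls. A list of 13 slow or oxidative fibre genes held Myh2, the myosin of fast oxidative 2A fibres, and 12 genes typical of slow fibres (Myh7, Tnnt1, Tnni1, Tnnc1, Myl2, Myl3, Tpm3, Atp2a2, Casq2, Myoz2, Csrp3 and Ankrd2). Myh2, split off after the values were seen, made up a large part of the list's sum. Myh2 was between 186 and 1646 CPM in FLExDUX4 runners and between 457 and 593 CPM in FLExDUX4 controls, and between 149 and 2349 CPM in WT runners and between 54.0 and 79.5 CPM in WT controls. The other 12 genes summed to between 68.7 and 1133 CPM in FLExDUX4 runners and between 215 and 548 CPM in FLExDUX4 controls, and to between 149 and 861 CPM in WT runners and between 50.2 and 66.0 CPM in WT controls. In WT mice all 13 genes were above 0, with a median of 3.22 on the log2 scale and 0 called, and 8 of 13 had groups that did not overlap with runners higher, beside 5.74% of all tested genes. In FLExDUX4 mice 12 of the 13 were above 0, with a median of 0.70 and 0 called. There 0 of 13 had groups that did not overlap, beside 3.72% of all tested genes with runners higher. Averaged over genotype, 1 of the 13, Casq2, was called higher (1.57 ± 0.35, edgeR adjusted p = 0.0468), beside 0.55% of all tested genes. At an unadjusted p under 0.05, 9 of the 13 were higher in that average, beside 12% of all tested genes in either direction. The 6 endothelial markers summed to between 94.1 and 190.3 CPM in FLExDUX4 runners and between 119 and 139.7 CPM in FLExDUX4 controls, and to between 148 and 245 CPM in WT runners and between 88.2 and 101 CPM in WT controls. In WT mice 1 of them, Kdr, was called higher, beside 0.397% of all tested genes. Kdr was also the 1 called averaged over genotype (0.90 ± 0.18, edgeR adjusted p = 0.0197), beside 0.55% of all tested genes called higher. The 5 red blood cell genes summed to between 478 and 1743 CPM in FLExDUX4 runners and between 672 and 989.6 CPM in FLExDUX4 controls, and to between 1134 and 1840.5 CPM in WT runners and between 441 and 955 CPM in WT controls. The macrophage list had 0 of 5 genes called in either genotype. Of the 4 fat markers, Ucp1, the brown fat uncoupler, was at 0 counts in 13 of 14 libraries and at 4 counts in FLExDUX4 running 3, while Cidea had 0 to 16 counts, Adipoq 7 to 102 and Cidec 2 to 52. These 4 summed to between 3.14 and 28.0 CPM in FLExDUX4 runners and between 9.72 and 17.3 CPM in FLExDUX4 controls, and to between 5.54 and 23.2 CPM in WT runners and between 11.1 and 25.9 CPM in WT controls, and 0 of the 3 tested were called with running. The part of these fibre and cell types in the Atp5g1 and Atp5g3 values was not tested. In whole muscle, a change in the share of a fibre or cell type and a change in RNA per cell cannot be told apart.

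The balance of the c-subunit paralogues was compared within each mouse by the log2 ratio of raw counts, which needs no library scaling. Of the counts of Atp5g1 plus Atp5g3, Atp5g1 supplied 17.998% ± 1.23 in FLExDUX4 runners (SD, n = 4), 17.8% ± 1.13 in FLExDUX4 controls (n = 3), 19.6% ± 2.04 in WT runners (n = 4) and 18.1% ± 0.100027 in WT controls (n = 3). Atp5g2 is left out of these shares, since its count cannot be read as a level. The 3′ end of Atp5g1 is only partly distinct and that of Atp5g3 fully so, and the effect of this on the shares was not tested. The log2 ratio of Atp5g1 to Atp5g3 was -2.34, -2.12, -2.07 and -2.24 in FLExDUX4 runners, against -2.19, -2.12 and -2.34 in FLExDUX4 controls. WT runners had -2.28, -2.10, -1.92 and -1.86, against -2.19, -2.18 and -2.17 in WT controls. The WT controls were nearly equal, and the WT runners lay on both sides of them. Averaged over genotype, running shifted this ratio by 0.08 (2-sided exact permutation test within genotype, 1225 regroupings, p = 0.279, adjusted p = 0.419 over 6 tests). The genotype difference averaged over running was -0.09 (exact permutation p = 0.186, adjusted p = 0.419). The ratios to the listed Atp5g2 counts, which carry the same limit, did not pass either: with running, 0.41 for Atp5g1 (exact permutation p = 0.179, adjusted p = 0.419) and 0.34 for Atp5g3 (exact permutation p = 0.270, adjusted p = 0.419), and with genotype 0.04 and 0.14 (exact permutation adjusted p = 0.867 and 0.754).

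The c-ring genes were also set against Atp5b, as a description chosen after the values were seen and without a test. The listed counts of the 3 c-subunit genes were summed, Atp5g2 making up at most 0.413% of the sum in any mouse. The log2 ratio of this sum to Atp5b counts was 0.26, 0.41, 0.46 and 0.18 in FLExDUX4 runners, against -0.13, 0.04 and 0.17 in FLExDUX4 controls. WT runners had 0.47, 0.38, 0.17 and 0.47, against 0.10, 0.06 and -0.01 in WT controls. In each genotype every runner lay above every control, by a small margin in FLExDUX4 mice.

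**Figure D4:**
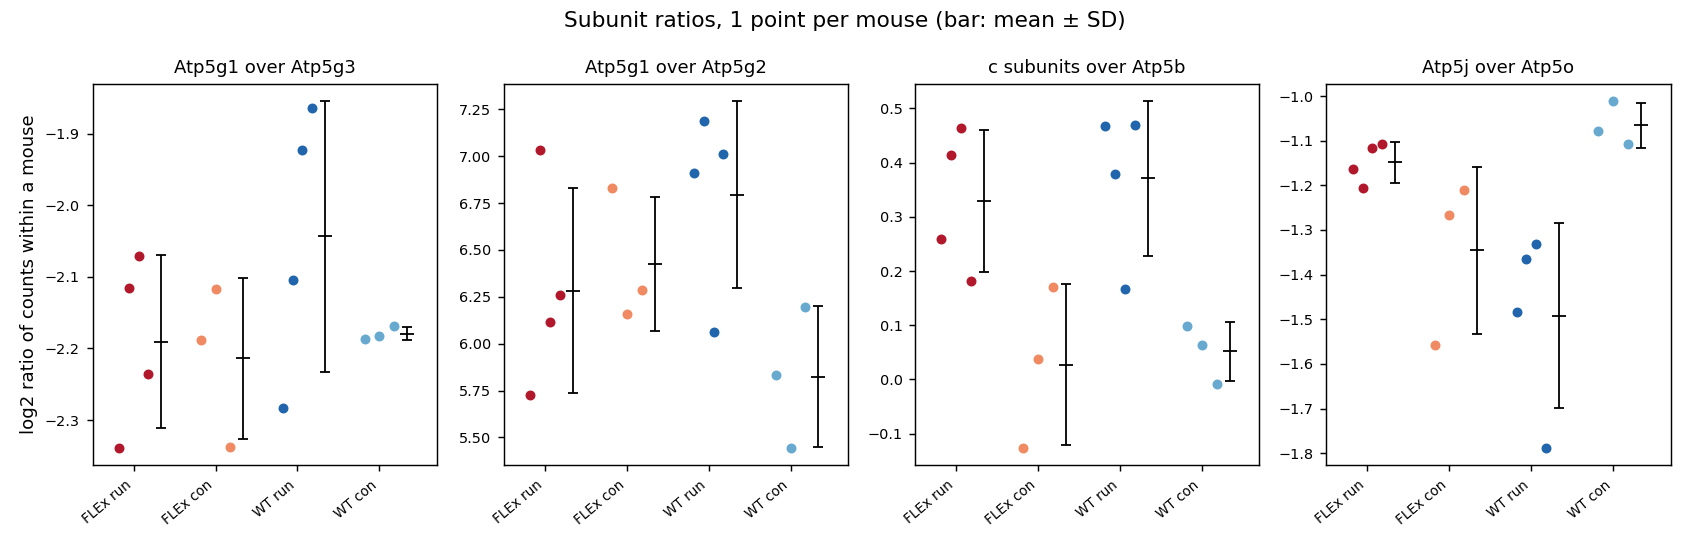
Log2 ratios of raw counts within each mouse, with the mean and SD of each group; the vertical scale differs between panels. The ratio of Atp5g1 to Atp5g3 overlaps between runners and controls, while the ratio of summed c subunits to Atp5b is higher in every runner than in every control of the same genotype (0.18 to 0.46 in FLExDUX4 runners, at most 0.17 in FLExDUX4 controls).

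The FLExDUX4 and WT mice did not differ detectably in any member. In controls, log2 fold changes of FLExDUX4 over WT ran from -0.48 for Atp5g2 to 0.20 for Atp5h, with a median of 0.10 beside 0.00231 for all tested genes. The number of members called by edgeR was 0, as for all tested genes (0%), and 0 passed an unadjusted p under 0.05, beside 5% of all tested genes; DESeq2 called 3 genes and limma-voom 0, none of them members. Atp5a1 was the 1 member of 10 whose groups did not overlap, with FLExDUX4 controls higher, beside 5.93% of all tested genes. Of the 13 slow or oxidative fibre genes, 10 had groups that did not overlap, with FLExDUX4 controls higher, and 0 were called. Myh2 was between 457 and 593 CPM in these FLExDUX4 controls and between 54.0 and 79.5 CPM in WT controls, and the other 12 summed to between 215 and 548 CPM in FLExDUX4 controls and between 50.2 and 66.0 CPM in WT controls; their part in the Atp5a1 values was not tested. Atp5j was -0.19 ± 0.16, and 0.13 with library sizes from the spike-ins. In runners the values ran from -0.27 for Atp5g1 to 0.23 for Atp5g2, with a median of -0.12 beside -0.01 for all tested genes. Again 0 members and 0% of all tested genes were called by edgeR, DESeq2 or limma-voom, 0 members passed an unadjusted p under 0.05, beside 3.16%, and 0 of 10 had groups that did not overlap, beside 1.36% with FLExDUX4 runners higher. Atp5g1 averaged 250.004 ± 65.9 CPM in FLExDUX4 runners (SD, n = 4) and 301 ± 64.8 CPM in WT runners (n = 4), a log2 difference of -0.27 ± 0.16 (edgeR adjusted p = 0.999). Averaged over running, the members lay between -0.12 and 0.04, with a median of -0.01 beside -0.00251 for all tested genes. There 0 members were called by edgeR (0% of all tested genes; DESeq2 called 1 gene, no member, and limma-voom 0), and 0 passed an unadjusted p under 0.05, beside 3.77%.

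In the authors' deposited table of DESeq2 comparisons, in which the log2 fold change is control over runner and a negative value means higher in runners, 7 of 10 members had an adjusted p under 0.05 between WT runners and WT controls, beside 9.9% of the 3021 genes with an adjusted p. In the same deposited table, the authors give Atp5g1 a log2 fold change of -0.76 (adjusted p = 0.000765) and Atp5g3 of -0.65 (adjusted p = 0.00395). Atp5c1 (adjusted p = 0.103) and Atp5j (0.894) did not pass in the authors' deposited table, and Atp5g2 had no adjusted p. For FLExDUX4 runners and FLExDUX4 controls, the authors' deposited table gave 0 of 10 members, the lowest adjusted p being 0.276 for Atp5j, beside 0.0531% of genes. For both genotype comparisons it gave 0 of 10 members in the authors' deposited table, beside 0.00441% of genes in each.

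Of the tested genes outside the 10 members, those whose log2 CPM followed Atp5g1 most closely over the 14 mice were Ndufa4 (Pearson r = 0.958), Cox7a1 (0.955), Ndufb7 (0.953), Slc25a3 (0.948) and Uqcrq (0.947). Ndufa4, Cox7a1, Ndufb7 and Uqcrq are subunit genes of the respiratory chain. Among the members, some of which came as close, r with Atp5g1 was 0.955 for Atp5o, 0.950 for Atp5g3 and 0.940 for Atp5a1, and was lowest for Atp5j (0.628) and Atp5g2 (0.236). With the mean of the 10 members, the closest genes outside them were Slc25a3 (0.970), Atp5f1, subunit b of the peripheral stalk (0.966), Uqcrq (0.956), Cox4i1 (0.954) and Cox7a1 (0.952). These correlations are a description over mice of 4 groups that share the running difference and the library scaling, and they carry no test.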

How the data were processed

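Triceps RNA of 14 mice was sequenced from the 3′ end with the QuantSeq FWD kit, per the labels' protocols. The deposited table holds the authors' raw counts per gene for each mouse, beside log2 fold changes and p-values of their own comparisons. Per the submitters' processing notes the tools were cutadapt 1.16, FastQC 0.11.7, STAR 2.5.3a, featureCounts 1.6.2 and DESeq2, with builds GRCm38 and GRCh38. The rule for reads with several alignments, the strand setting and the annotation release are not given in the sources used here. The table has 52649 rows, and 99 spike-ins were left out of library sizes and tests.

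Counts were fitted over all 14 libraries with edgeR 4.0.16 (quasi-likelihood, robust, TMM scaling, filterByExpr with a minimum count of 10, 11088 genes), with Benjamini-Hochberg adjustment over all tested genes. The common biological coefficient of variation was 0.288. DESeq2 1.42.0 and limma-voom (limma 3.58.1, R 4.3.3) were alternatives, as were other scalings, filters, thresholds and leaving out each mouse. The fits were tested on simulated data. Paralogue ratios of raw counts were tested by exact permutation. Mice are numbered in accession order within a group. Library totals of 3315921 to 7089226 counts, with the spike-ins included, limit what low genes such as Atp5g2 can show. No pair of replicates agreed within sampling noise (lowest chi-square per degree of freedom 5.89). All 10 members were named. Values of other genes of the complex and its carriers were given if called, or if among the 2 smallest p of their list. Those of Slc25a4 were added after the values were seen. Members and lists were chosen with earlier results of these data known.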

Additional observations from a re-analysis of the deposited data

Results flagged for a closer look

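Among 38 sets of 4 mice examined, 1 value stood apart by Dixon's criterion. Atp5j in WT running 2 was 202 CPM, while the other WT runners were close together at 225 to 228 CPM. The gap to the nearest of them was 0.894 of the range of the group, above the 95% critical value for 4 samples. Chance alone sets apart about 1 in 20 groups.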

How the results depend on the processing

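No member was called under any alternative for running in FLExDUX4 mice, for the difference of the running effects or for the 3 genotype comparisons. For running in WT mice, 2 members and 55 genes in all were called. There limma-voom called 0 members (23 genes) and the fit without a low-count filter 6 (217). The fit without robust estimation called 1 (74), library sizes from the spike-ins 8 (604) and a fit of only the groups compared 1 (56). Leaving out 1 mouse gave 0 to 4 members and 0 to 197 genes. DESeq2 called 196 genes and a threshold of 0.10 called 149. Averaged over genotype, where 2 members and 95 genes were called, DESeq2 called 4 (273), the fit without a filter 6 (291), the spike-ins 8 (430), a threshold of 0.10 4 (236), and the fit that left out both FLExDUX4 control 1 and WT running 2 called 1 (24); leaving out 1 mouse gave 1 to 6 members and 17 to 286 genes. For running, the spike-in scaling moved the median of all tested genes by 0.36 in WT mice, 0.04 in FLExDUX4 mice and 0.20 on average. Members minus all genes was then 0.48 in WT mice, against 0.46 with TMM. The same scaling moved the median of all tested genes by 0.31 for genotype in controls and by -0.32 for the difference of the running effects. Members minus all genes was then 0.11 and -0.28, against 0.10 and -0.24 with TMM. Spike-ins took on average 1.40% of counts in WT controls and 1.04% to 1.12% in the other groups. Atp5g1 kept its call for running averaged over genotype in 14 of 14 fits without 1 mouse and in 10 of 10 other alternatives, and Atp5g3 in 13 of 14 and 9 of 10. For running in WT mice, Atp5g1 kept it in 9 of 14 (adjusted p by edgeR 0.0044 to 0.184) and 10 of 11, and Atp5g3 in 5 of 14 (0.00451 to 0.193) and 8 of 11. For genotype averaged over running, the signs of single members were not followed. The median of the 10 members there ran from -0.0596 to 0.0348 without 1 mouse and was 0.13 with library sizes from the spike-ins. In the other comparisons of members, signs turned only for values that passed no test: Atp5g2 for running in WT mice (0.22 with spike-ins, 0.0211 without both mice, -0.300 to 0.0317 without 1 mouse), Atp5j with spike-ins (-0.00906 for the difference of running effects, 0.13 for genotype in controls), Atp5c1 for the difference of running effects (-0.219 to 0.0232 without 1 mouse) and for genotype in controls (-0.0166 to 0.117 without 1 mouse, the lowest without WT control 1), and, for genotype in runners, Atp5c1 (-0.164 to 0.0773 without 1 mouse) and Atp5h (-0.286 to 0.0301), the highest of both without WT running 4. The genotype difference in the log2 ratio turned to -0.16 for Atp5g1 over Atp5g2 and -0.0449 for Atp5g3 over Atp5g2 with medians of mice, and ran from -0.0801 to 0.137 and from -0.00641 to 0.227 without 1 mouse. The cause of these changes was not tested. No paired analysis was possible because the labels give each mouse its own number and share none between groups.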

Other observations

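The peripheral stalk genes Atp5j and Atp5o were also set against each other within each mouse, a comparison chosen after the values were seen and given without a test. The log2 ratio of Atp5j to Atp5o counts was -1.16, -1.21, -1.12 and -1.11 in FLExDUX4 runners, against -1.56, -1.27 and -1.21 in FLExDUX4 controls. WT runners had -1.48, -1.36, -1.33 and -1.79, against -1.08, -1.01 and -1.11 in WT controls. The FLExDUX4 groups were not clearly separate: the lowest runner (-1.206) and the highest control (-1.210) were nearly equal. Every WT runner lay below every WT control.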
